A study of Mus musculus with 6 samples.

Results

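The V-ATPase and lysosome genes described here are 38 of the 24411 genes in a table of liver RNA-seq counts, and 36 of them had enough counts to be tested. They were chosen by name from earlier results of the same table: the 15 subunits of the vacuolar H+-ATPase (V-ATPase), a pseudogene of one of these subunits (Atp6v0c-ps2), 9 lysosomal proteases (cathepsins and legumain), 5 lysosomal membrane proteins and 8 other hydrolases or proteins of the lysosomal lumen. Atp6v0c-ps2 was picked because its count differed between the genotypes, and which of the others were picked for their values was not recorded. The genotype comparison is therefore given below as a description, without p-values.

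The V-ATPase is the rotary proton pump that acidifies lysosomes and endosomes. Its cytosolic V1 sector hydrolyses ATP, and the rotation this drives carries protons through the membrane-embedded V0 sector, whose c subunits form the rotor ring. Acidic pH activates the cathepsins and the glycosidases, lipases and sphingolipid enzymes of the lumen, and in liver these enzymes degrade autophagic and endocytic cargo, glycogen and lipoprotein lipids. Many of these genes carry a CLEAR element, the E-box-type site bound by the transcription factors of the MiT/TFE family, TFEB and TFE3 among them.

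Livers came from 3 p62+/+ mice and 3 p62S351E/+ mice at P19, with 1 library per mouse. The p62S351E/+ mice carry, on one of their Sqstm1 alleles, a glutamate codon in place of the serine codon of p62 that is phosphorylated in stress, a change made to mimic phosphorylation. The allele was introduced by prime editing into C57BL/6N-derived ES cells, and the line descends from a single chimeric male. Mice of this genotype were severely growth retarded before weaning, and effects of the allele and of body condition cannot be told apart here. A gene count does not show which Sqstm1 codon a mouse carries, so these tables give no check of the genotype. Totals of 8696710 to 10341600 counts were mostly ribosomal RNA (Rn45s), Lars2 and Mir6236, and outside these 3 genes the p62+/+ libraries held 297320, 299487 and 271473 counts and the p62S351E/+ libraries 134911, 231631 and 315436. The members took 0.493% to 0.635% of the counts outside these 3 genes, between 671 and 1919 counts per library, so values for weakly expressed members rest on few reads. Hepatocyte markers such as Alb were present in every library, and p62S351E/+ mice 1 and 2 stood apart from the other 4 libraries by the near absence of neural transcripts, with a summed level of 12 neural markers of 38.1 and 46.6 normalized counts against 2099 to 2337. Normalized counts are RSEM expected counts divided by the relative size of the library after TMM scaling. Errors of means are SD over 3 mice, and errors of log2 fold changes are standard errors (SE) of the fit throughout.

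Atp6v0c, which encodes the c subunit of the proton-carrying ring, and Atp6v0c-ps2, an intronless processed copy, are shown first because 1 base separates the only part of the pair that could be compared. Atp6v0c lies on the minus strand of chr17:24163866-24169702 (mm10) and Atp6v0c-ps2 on the plus strand of chr6:37806086-37806550. The 465 coding bases of the main Atp6v0c transcript and the 465 annotated bases of Atp6v0c-ps2 were identical at 464 positions (99.78%). The single substitution was T111C, counted from the A of the start codon with the base of Atp6v0c first; it lies in exon 2 of 3 of Atp6v0c, turns the codon AGT into AGC and leaves the encoded protein the same. Coding bases 37 to 185 of both are printed with the differing base in capitals; these are all the bases that a 75-base read covering the difference could reach. The Atp6v0c stretch runs over an intron, from chr17:24169248 down to chr17:24164777 with the difference at chr17:24164851, and the Atp6v0c-ps2 stretch is chr6:37806122-37806270 with the difference at chr6:37806196.
Atp6v0c: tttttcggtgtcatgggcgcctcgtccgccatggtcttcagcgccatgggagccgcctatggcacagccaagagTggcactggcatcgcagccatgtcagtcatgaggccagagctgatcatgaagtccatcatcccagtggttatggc
Atp6v0c-ps2: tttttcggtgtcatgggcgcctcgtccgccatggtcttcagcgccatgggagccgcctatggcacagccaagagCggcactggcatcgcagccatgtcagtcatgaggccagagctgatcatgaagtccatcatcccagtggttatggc
Of the 391 windows of 75 bases in the annotated pseudogene, 316 (80.8%) were also found in Atp6v0c and 75 were not, namely those that hold the differing base. No gene outside the Atp6v0c family shared a window, and 25 were shared with the other processed copy, Atp6v0c-ps1, which had no row in the count table. A read from the shared windows fits both genes, and RSEM divides such reads between them by an estimate.

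Atp6v0c-ps2 was the member with the largest difference between the genotypes. Its expected counts were 0, 0.13 and 0 in the p62+/+ livers and 13, 17.36 and 49.37 in the p62S351E/+ livers, or 24.8, 21.9 and 38.2 normalized counts. Every p62S351E/+ library lay above every p62+/+ library, and the p62S351E/+ mean was at least 11.6-fold higher than the mean of the p62+/+ libraries set to a floor of 3 counts each. Atp6v0c itself showed 82, 94.87 and 91 counts in the p62+/+ livers and 0, 32.64 and 32.63 in the p62S351E/+ livers. All p62S351E/+ libraries lay below the p62+/+ range, and the library of mouse 1 had no Atp6v0c count at all although the 14 other V-ATPase subunits among the members were all detected in it.

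The sum of parent gene and pseudogene was less far apart between the genotypes. Together they had 82, 95 and 91 counts in the p62+/+ livers and 13, 50 and 82 in the p62S351E/+ livers, and the pseudogene took 100%, 34.7% and 60.2% of that sum in p62S351E/+ mice 1, 2 and 3 (55.0% of the pooled counts) against 0%, 0.137% and 0% in the p62+/+ mice. In normalized counts the sum was 72.7 ± 6.45 in p62+/+ and 50.4 ± 22.2 in p62S351E/+ livers, where mouse 1 had 24.8 and mice 2 and 3 had 63.0 and 63.5, just below the lowest p62+/+ value of 65.8. Fitted as 1 locus, the log2 fold change was -0.51 ± 0.34 (SE), against -1.65 ± 0.95 for Atp6v0c alone and 7.90 ± 0.66 for Atp6v0c-ps2 alone, the last of which depends on the prior count because the p62+/+ values are at 0. Without p62S351E/+ mouse 1 the value of the summed locus was -0.19. The values of the separate genes are uncertain because 316 of the 391 windows of the annotated pseudogene are shared. Of the 1109 windows of the main Atp6v0c transcript, 316 are shared with it, and the longer RefSeq extent of the pseudogene was not compared. These gene-level counts do not show from which of the copies a read came.

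**Figure D1:**
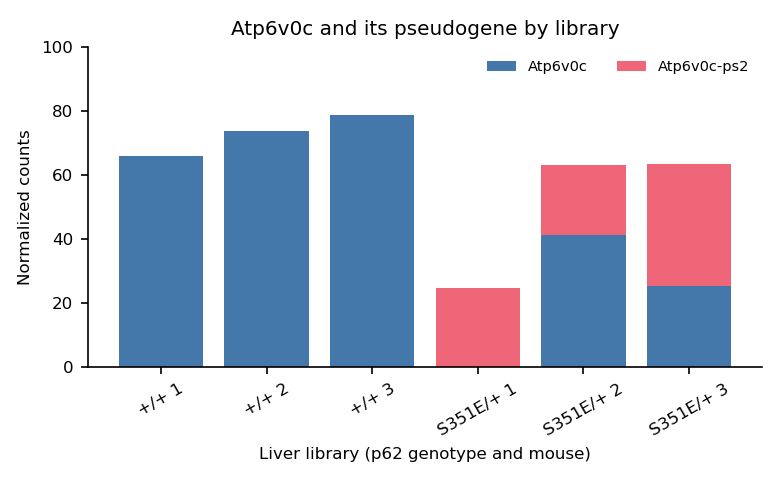
Normalized counts (y axis) of Atp6v0c (blue) and Atp6v0c-ps2 (red), stacked, in each of the 6 liver libraries (x axis), 1 mouse per bar. The pseudogene adds nothing visible to the p62+/+ bars and 21.9 to 38.2 to the p62S351E/+ bars, and the summed bars of p62S351E/+ mice 2 and 3 reach 63.0 and 63.5.

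A gene was called where edgeR's quasi-likelihood test gave an adjusted p below 0.05 and the log2 fold change passed 1 in either direction. By this rule 1 of the 36 tested members was called higher in p62S351E/+ livers, Atp6v0c-ps2, and 0 were called lower. Over all 5945 genes tested, 0.841% were called higher and 0.0841% lower. At an unadjusted p below 0.05, 5 members were higher and 6 lower by edgeR, where 9.02% and 5.55% of all genes tested were. limma-voom called 1 member higher and 0 lower and placed 5 and 7 below an unadjusted 0.05, as it did 10.2% and 9.27% of all genes tested. DESeq2, without the filter on low counts, called 0 of 38 members in either direction and placed 1 and 4 at that level, as it did 1.95% and 1.85% of 16283 genes. It gave no adjusted p to many members, among them Atp6v0c-ps2, Atp6v1c1, Atp6v0d1 and Ctsz. A gene without an adjusted p could not be called, so its 0 calls cover only part of the members. Because the members were chosen with this contrast known, nothing is read from these shares. The median log2 fold change was -0.13 over the 36 tested members and -0.03 over all genes tested. In 8 members every p62S351E/+ library lay below every p62+/+ library, as in 14.7% of all genes tested, and in 5 every one lay above, as in 12% of all genes tested. The lower 8 comprised 7 V-ATPase subunits and Gaa, and the higher 5 were Atp6v0c-ps2, Ctsd, Ctsl, Lamp2 and Grn. The p62S351E/+ mice were not alike. Mice 1 and 2 both lay below the p62+/+ range in 15 of the 38 members (29.8% of all genes tested) and both above it in 10 (20.9%), whereas mouse 3 lay below the range in 8 (29.6%), within it in 20 (42.7%) and above it in 10 (27.7%). In 6 members, 3 of them V-ATPase subunits, mice 1 and 2 were below and mouse 3 within the range, a pattern of 11.2% of all genes tested.

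**Figure D2:**
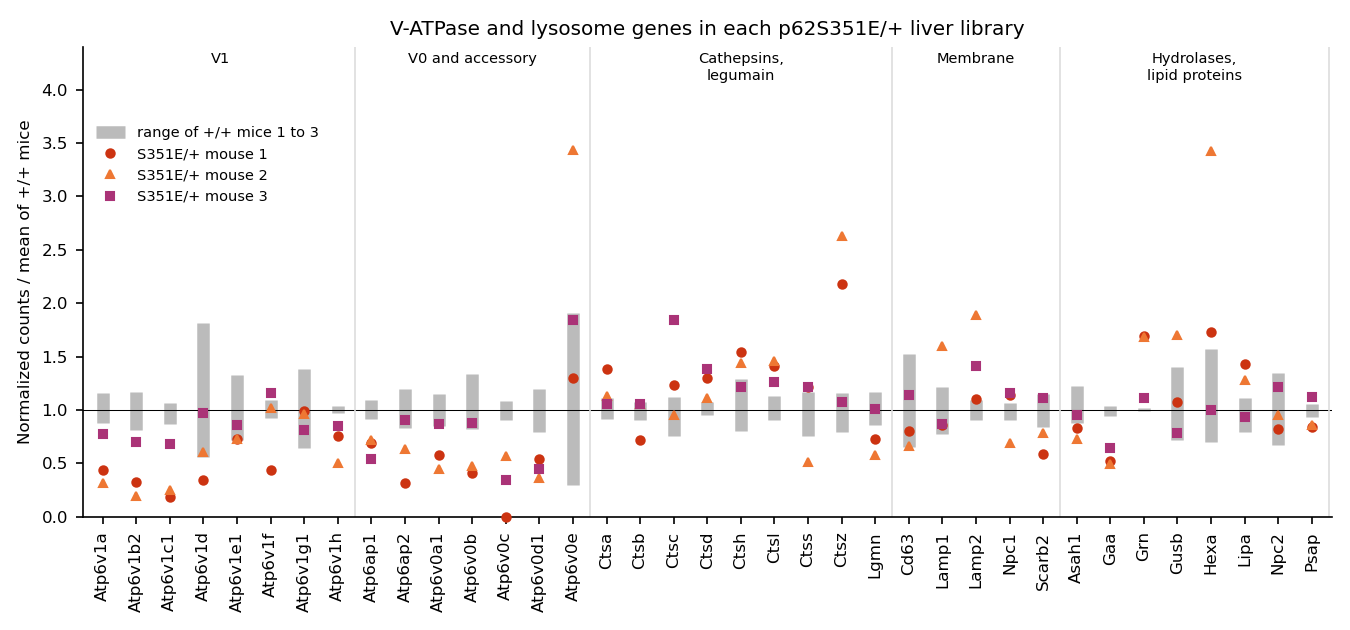
Normalized counts of 37 members in each p62S351E/+ library divided by the mean of the 3 p62+/+ libraries (y axis, linear), grouped by role, with a grey bar for the p62+/+ range; Atp6v0c-ps2 is left out because its p62+/+ mean is close to 0. Among the V-ATPase subunits the symbols of mice 1 and 2 lie mostly under the grey bars and those of mouse 3 mostly closer to 1, whereas the symbols of the cathepsins and of the luminal and membrane proteins lie on both sides.

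The 8 V1 subunits all had fitted log2 fold changes below 0, with a median of -0.53 and a range of -1.31 to -0.12, none of which passed the test. Atp6v1a, the catalytic subunit that binds and splits ATP, had the most counts of the sector, not adjusted for length, with 69.8, 58.2 and 52.7 normalized counts in p62+/+ livers and 26.7, 18.9 and 46.5 in p62S351E/+ livers. The groups did not overlap, mice 1 and 2 were far lower than mouse 3, and the fitted log2 fold change was -0.95 ± 0.33 (SE). Atp6v1c1, the regulatory C subunit that holds V1 to V0, had 17.7, 21.7 and 21.6 in p62+/+ and 3.81, 5.04 and 13.9 in p62S351E/+ livers, the farthest apart of the sector at -1.31 ± 0.45. Atp6v1b2, the B subunit that pairs with A in the catalytic hexamer, showed 48.2, 69.1 and 59.6 against 19.04, 11.3 and 41.1 (-1.27 ± 0.43). Again mouse 3 was the closest of the p62S351E/+ mice to the p62+/+ range without reaching it. Atp6v1h, a regulatory subunit, also had no overlap (20.0 ± 0.748 against 14.1 ± 3.61). The central-stalk subunits Atp6v1d and Atp6v1f and the peripheral-stalk subunits Atp6v1e1 and Atp6v1g1 overlapped between the genotypes, with log2 fold changes of -0.57, -0.13, -0.36 and -0.12. Atp6v1g1, the highest of the sector by fold, had 16.1, 24.1 and 34.5 in p62+/+ and 24.8, 23.9 and 20.1 in p62S351E/+ livers. Atp6v1d, Atp6v1f and Atp6v1g1 changed sign in some alternative fits: leaving out p62+/+ mouse 3 gave 0.17 for Atp6v1d and 0.19 for Atp6v1g1, and leaving out p62S351E/+ mouse 1 gave 0.14 for Atp6v1f.

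The V0 and accessory subunits showed the same direction in all 6 that were tested, with a median log2 fold change of -0.68, and none passed the test. Besides Atp6v0c, the greatest distance was in Atp6v0d1, the subunit that couples the c ring to the V1 stalk, with 17.7, 21.0 and 13.8 normalized counts in p62+/+ and 9.52, 6.30 and 7.75 in p62S351E/+ livers (-1.16 ± 0.34). Here the library of mouse 3 was as low as those of mice 1 and 2. Atp6ap1, an assembly factor that stays in the finished V0 sector, had 36.1, 30.3 and 32.8 against 22.9, 23.9 and 17.8 (-0.62 ± 0.24), and in this gene mouse 3 was the lowest of all. Atp6v0a1, whose protein forms the channels by which protons reach and leave the ring, Atp6v0b, the c-type ring subunit c'', and Atp6ap2, the prorenin receptor, had log2 fold changes of -0.64, -0.71 and -0.64. In these 3 genes mice 1 and 2 lay below the p62+/+ range and mouse 3 within it. The small Atp6v0e was not tested, at 1 to 8 counts per library.

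Summed over the 15 subunits, the V-ATPase was lower in all 3 p62S351E/+ livers. The sum was 429, 443 and 459 normalized counts in p62+/+ and 192, 230 and 316 in p62S351E/+ livers, which is 0.433, 0.519 and 0.712 of the p62+/+ mean. With the pseudogene's counts added to it, the shares were 0.489, 0.568 and 0.798 and every p62S351E/+ sum was still below that of every p62+/+ liver. All 14 tested subunits had log2 fold changes below 0, as did 52% of all genes tested, with a median of -0.64 and 5 of the 14 at an unadjusted p below 0.05; they were chosen with this contrast known. Library size as the only scaling moved the median of all genes tested to -0.68 and that of the V-ATPase to -1.21.

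Markers of other cell types also differed between these mice. The 12 neural markers summed to 0.0167 and 0.0205 of the p62+/+ mean in p62S351E/+ mice 1 and 2, with 4 of the 12 at 0 in both, and to 0.922 in mouse 3. In mouse 3, where the neural sum was close to that of the p62+/+ livers, the V-ATPase sum stood at 0.712. With the counts that RSEM gave to Atp6v0c-ps2 added, it stood at 0.798. A fit with the neural marker level as a covariate gave a median V-ATPase log2 fold change of -0.27, and a fit of mouse 3 alone against the p62+/+ mice gave -0.25. That level sets mice 1 and 2 apart from all other libraries. Both fits therefore rest mainly on mouse 3 and are not separate results. Without mouse 3 the median was -1.02, and Atp6v1a, Atp6v1b2 and Atp6v1c1 were called lower, where 15.3% of all genes tested were. Stellate and stromal markers summed to 161 to 303 in p62+/+ and 94.5 to 137 in p62S351E/+ livers, with 7 of 7 markers detected. Hepatocyte markers summed to 1.53, 2.38 and 1.09 of the p62+/+ mean in p62S351E/+ mice 1, 2 and 3, with all 8 detected. Alb was the largest part of each sum. Of the 8 markers, 6 had log2 fold changes above 0 and 2 below, Fabp1 without overlap (means of 181.8 and 59.5). In mouse 3, 3 lay above the p62+/+ range, 2 within it and 3 below it. The part of these other lists in the V-ATPase values was not tested. In tissue RNA, fewer cells of a type and less RNA per cell cannot be told apart.

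**Figure D3:**
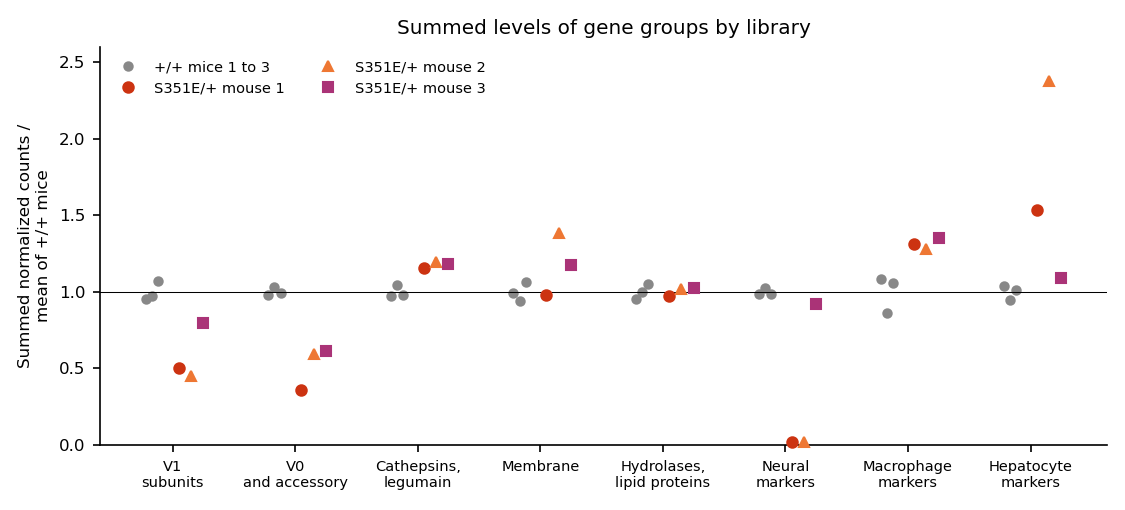
Summed normalized counts of 5 role groups of the members and of 3 marker lists in each library, divided by the mean of the p62+/+ libraries (y axis, linear); grey points are p62+/+ mice and coloured symbols the p62S351E/+ mice. The V1 and V0 sums lie below the grey points in all p62S351E/+ mice, the neural sum only in mice 1 and 2 by a wide margin (mouse 3 is at 0.922), and the protease sum lies above them at 1.16 to 1.19.

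Some V-ATPase subunits exist in tissue-specific isoforms, and the remaining subunits and assembly factors, 22 genes, were examined alongside. Of the 9 tested by edgeR and limma-voom, and of the 16 fitted by DESeq2, 0 were called. As above, a gene without an adjusted p from DESeq2 could not be called by it. At an unadjusted p below 0.05, 1 was lower by edgeR (5.55% of all genes tested), 3 by limma-voom (9.27%) and 0 by DESeq2 (1.85%), and 0 were higher by any of them (9.02%, 10.2% and 1.95%). The median log2 fold change by edgeR was 0.04. Those with the most counts, Dmxl1 and Dmxl2, which encode rabconnectins that help V1 assemble on V0, had log2 fold changes of 0.30 ± 0.24 and 0.07 ± 0.24 (SE). A pair of isoforms typical of neurons is named because of its values. Atp6v1g2 had 20, 18 and 25 counts in p62+/+ and 0, 0 and 20 in p62S351E/+ livers, and Atp6v0e2 had 24, 18 and 24 against 0, 0 and 24. Both were at 0 in p62S351E/+ mice 1 and 2, where neural markers were nearly absent, and within the p62+/+ range in mouse 3. The osteoclast-enriched a3 subunit Tcirg1 was at 16.9 to 19.9 normalized counts in p62+/+ and 10.8 to 25.2 in p62S351E/+ livers, and the kidney-type subunits Atp6v1b1 and Atp6v1g3 were listed at 0 in every library.

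The 9 cathepsin and legumain genes lay mostly on the other side of the p62+/+ livers. Their summed level was 420, 453 and 424 normalized counts in p62+/+ and 501, 516 and 510 in p62S351E/+ livers, 1.16, 1.19 and 1.18 of the p62+/+ mean. None passed the test, 6 of the 9 had log2 fold changes above 0, and the median was 0.34. Ctsz, cathepsin X, a carboxypeptidase, was the farthest apart, with 16.1, 21.0 and 23.3 in p62+/+ and 43.8, 52.9 and 21.7 in p62S351E/+ livers (0.96 ± 0.35). Mice 1 and 2 lay above the p62+/+ range and mouse 3 within it. Ctsl, the endopeptidase cathepsin L, had 85.9, 100.1 and 80.3 against 125.7, 129.8 and 112.3 (0.46 ± 0.20). Ctsd, the main aspartic protease of lysosomes, had 75.4, 66.8 and 68.2 against 91.4, 78.1 and 96.8 (0.34 ± 0.20). In both genes all p62S351E/+ libraries lay above the p62+/+ libraries by a small margin, and with library size as the only scaling their log2 fold changes were -0.21 and -0.29, above the -0.68 that this scaling gave as the median of all genes tested. Ctsb, cathepsin B, had the most counts of the group, not adjusted for length, and overlapped between the genotypes, with 126.0, 149.6 and 143.2 against 100.8, 147.3 and 147.1. Lgmn, the asparaginyl endopeptidase that processes cathepsins, was the lowest by fold at -0.36 ± 0.29, with 30.5, 25.6 and 22.5 against 19.04, 15.1 and 26.3. Ctsa, the protective protein of lysosomal neuraminidase and β-galactosidase, the aminopeptidase Ctsh and the dipeptidyl peptidase Ctsc had log2 fold changes of 0.25, 0.47 and 0.45, and Ctss, typical of antigen-presenting cells, of -0.03.

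Macrophages are rich in lysosomal proteases, and the 12 Kupffer cell and macrophage markers summed to 149, 119 and 146 normalized counts in p62+/+ and 181, 176 and 187 in p62S351E/+ livers. The ratios to the p62+/+ mean were 1.31, 1.28 and 1.35, and 0 of the 12 were at 0 in mice 1 and 2. The markers did not move together. In mouse 3, 4 of the 12 lay above the p62+/+ range, 4 within it and 4 below it. Lyz2 alone had 61.8 in that mouse against a p62+/+ mean of 21.6. The part of these markers in the protease values was not tested. Of the 7 markers tested, 5 had log2 fold changes above 0. Every p62S351E/+ library lay above the p62+/+ range in 2 of the 12 (12% of all genes tested) and below it in 1 (14.7%). Above were Marco (means of 1.39 and 17.5), which did not pass the filter on low counts, and Cd5l (11.99 and 18.2). Below was Clec4f (21.8 and 14.7).

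The 5 lysosomal membrane proteins and the 8 luminal proteins were spread around 0, with medians of 0.01 for each group and none past the test. Lamp2, a major glycoprotein of the lysosomal membrane and the receptor of chaperone-mediated autophagy, had the most counts, not adjusted for length, and the highest fold change among the membrane proteins, with 93.9, 77.6 and 86.4 in p62+/+ and 95.2, 162.5 and 121.6 in p62S351E/+ livers (0.56 ± 0.24). The groups did not overlap, but mouse 1 was only just above the highest p62+/+ liver. Scarb2 (LIMP-2), which carries glucocerebrosidase to lysosomes, had 29.7, 21.7 and 25.9 against 15.2, 20.2 and 28.7 (-0.25 ± 0.30). Lamp1, the tetraspanin Cd63 and the cholesterol exporter Npc1 overlapped, at 0.15, -0.17 and 0.01.

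Among the luminal proteins, Gaa, the acid α-glucosidase that degrades lysosomal glycogen, was farthest below the p62+/+ livers, with 40.9, 44.2 and 44.9 against 22.9, 21.4 and 27.9 normalized counts (-0.84 ± 0.22). The groups were well apart, and the value in mouse 3 was close to those in mice 1 and 2. Grn, the precursor of the lysosomal granulins, was farthest above, with 32.1, 31.1 and 31.1 against 53.3, 52.9 and 34.9 (0.57 ± 0.24), and mouse 3 lay only just over the p62+/+ range. With library size as the only scaling, Lamp2 was at -0.07 and Grn at -0.16. Psap, the saposin precursor and the member with the most counts, had 168.6, 180.9 and 190.0 against 150.4, 155.0 and 202.2 (-0.09 ± 0.21). Lipa, which hydrolyses cholesteryl esters and triglycerides, the cholesterol-binding Npc2 and the ceramidase Asah1 overlapped, at 0.28, 0.01 and -0.24. Gusb (β-glucuronidase), the gene to which the study normalized its qRT-PCR, had 8, 16 and 9 counts in p62+/+ and 5, 12 and 9 in p62S351E/+ livers, with a log2 fold change of 0.23 ± 0.45. Hexa, the α subunit of β-hexosaminidase, was not tested, at 7 to 21 counts per library.

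**Figure D4:**
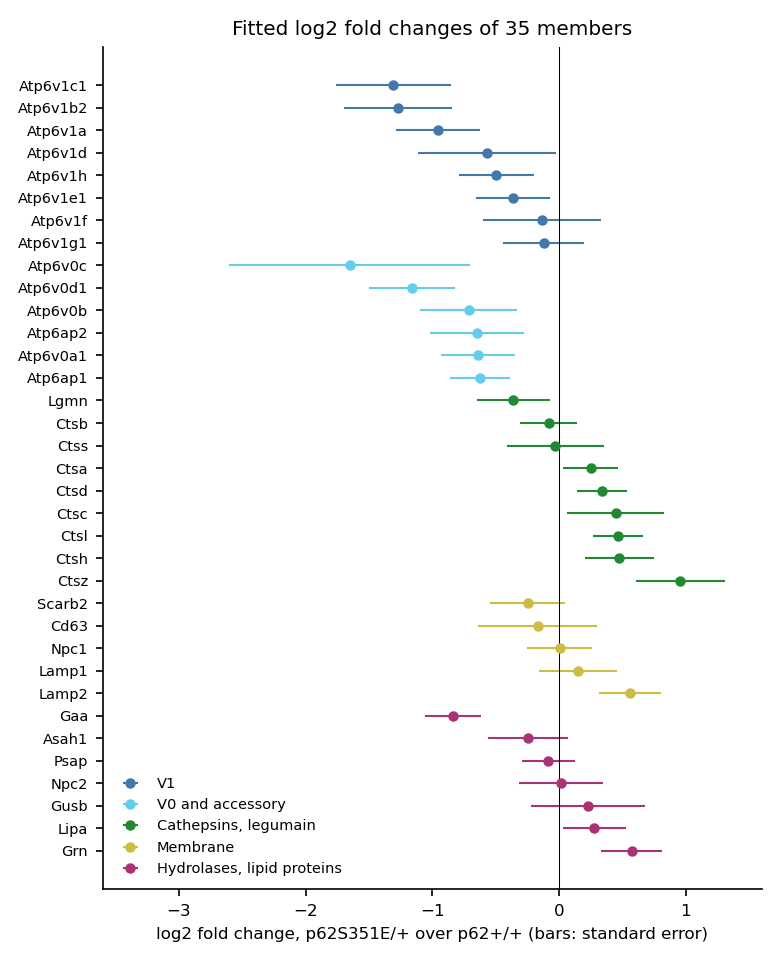
Fitted log2 fold changes of p62S351E/+ over p62+/+ livers (x axis) for the 35 tested members other than Atp6v0c-ps2, coloured by role, with bars of 1 standard error. The 14 V-ATPase subunits lie between -1.65 and -0.12, and the other 21 between -0.84 and 0.96.

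Further genes of the lysosome outside the 38 were examined as lists. Of 43 other lysosomal hydrolases 18 were tested, of 29 other membrane proteins and sorting receptors 16, and of 20 MiT/TFE factors, Ragulator and Rag GTPase genes 8. In each list 0 genes were called by edgeR, DESeq2 or limma-voom, with the same limit on calls by DESeq2. Against the same shares of all genes, at an unadjusted p below 0.05 by edgeR, 1 hydrolase, 2 membrane genes and 0 regulators were higher and 0 of each were lower; DESeq2, which tested all 43, 29 and 20, placed 1 hydrolase in each direction there and none of the others, and limma-voom 1 hydrolase and 3 membrane genes higher and 2 membrane genes lower. The medians were 0.00, -0.19 and 0.33. Ids, the heparan sulfate sulfatase iduronate-2-sulfatase and the further hydrolase with the most counts, had 42.5, 41.9 and 28.5 normalized counts in p62+/+ and 1.90, 7.56 and 29.4 in p62S351E/+ livers. The lipid transporter Abca2 had 49.8, 65.98 and 52.7 against 7.62, 17.6 and 49.6. Both were low in mice 1 and 2 and at or just under the p62+/+ range in mouse 3. Tmem106b, a lysosomal membrane protein that binds V-ATPase subunits, was at 43.95 ± 5.52 and 77.8 ± 22.1, with every p62S351E/+ library above the p62+/+ range. Mtor, the kinase that keeps TFEB in the cytosol, overlapped at 33.7 ± 3.74 and 31.3 ± 5.60, and Tfeb itself was too low to test, at 1 to 7 counts.

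Levels can be compared between genes only per length. Over the p62+/+ livers, in normalized counts per kb of the main transcript, Psap (67.7 ± 4.05) and Atp6v0c (61.4 ± 5.45) were the highest members and did not differ beyond their spread, followed by Ctsl (45.0 ± 5.19), Ctsd (33.0 ± 2.19) and Ctsb (29.4 ± 2.57), the last of which overlapped with Ctsd within 1 SD of each. The next subunits of the V-ATPase, Atp6v1g1 (21.9 ± 8.17) and Atp6v1b2 (20.9 ± 3.71), were at a far lower level than Atp6v0c, which is the subunit present in many copies per pump. Atp6v0e (3.57 ± 2.96) and Gusb (3.30 ± 1.17) were the lowest apart from the pseudogene. In the p62S351E/+ livers Atp6v0c was at 18.7 ± 17.5 and Atp6v0c-ps2, per kb of its 465 annotated bases, at 60.8 ± 18.8. Reads shared by both make each of these values uncertain. RefSeq gives the pseudogene 1133 bases, and the annotation used for counting is not given. If reads were counted over the longer extent, 60.8 is too high, so the 2 levels cannot be ranked.

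The promoters were examined for sequence motifs. The members were chosen as lysosome and V-ATPase genes, many of which are known to carry a CLEAR element. A high share of that element among them is therefore not an independent result. RefSeq promoters of GRCm38.p6, from 250 bases before to 50 after the start, were found for 29 of the 38 members, and 3 motifs were searched on both strands. The palindrome TCACGTGA, the core of the CLEAR element, was in the promoters of 5 of the 29 (17.2%), against 2.42% of 4552 tested genes and 1.12% of all 27025 genes with a promoter. The shorter E-box CACGTG, which includes every TCACGTGA, was in 10 (34.5%) against 12.2% and 8.09%. TGACNNNGC, the core of the antioxidant response element bound by NRF2, was in 7 (24.1%) against 18.1% and 14%. The members with TCACGTGA are shown in 30-base stretches with the motif in capitals because, of the 3 motifs, this one had the highest ratio of its share in the members to its share in the tested genes.
Atp6v1a: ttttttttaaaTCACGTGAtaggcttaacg
Atp6v0d1: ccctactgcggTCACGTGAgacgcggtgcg
Atp6v0e: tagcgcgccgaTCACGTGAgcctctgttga
Ctsa, upstream site: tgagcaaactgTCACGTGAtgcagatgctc
Ctsa, downstream site: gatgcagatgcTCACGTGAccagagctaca
Ctsd: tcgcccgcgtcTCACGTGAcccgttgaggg
These lie at chr16:44139373-44139402 (minus strand) for Atp6v1a, chr8:105566050-105566079 (minus) for Atp6v0d1, chr17:26676387-26676416 (plus) for Atp6v0e, chr2:164833749-164833778 and chr2:164833766-164833795 (plus) for Ctsa, and chr7:142387908-142387937 (minus) for Ctsd. The motif was thus present both in V-ATPase genes with lower values in p62S351E/+ livers (Atp6v1a, Atp6v0d1) and in a protease gene with slightly higher ones (Ctsd), and 3 of the 11 V-ATPase genes with a promoter held it (27.3%) against 2 of the 18 other members (11.1%). Ctsa held it at both sides of its start. A match of letters is a description and does not show that a factor binds there.

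**Figure D5:**
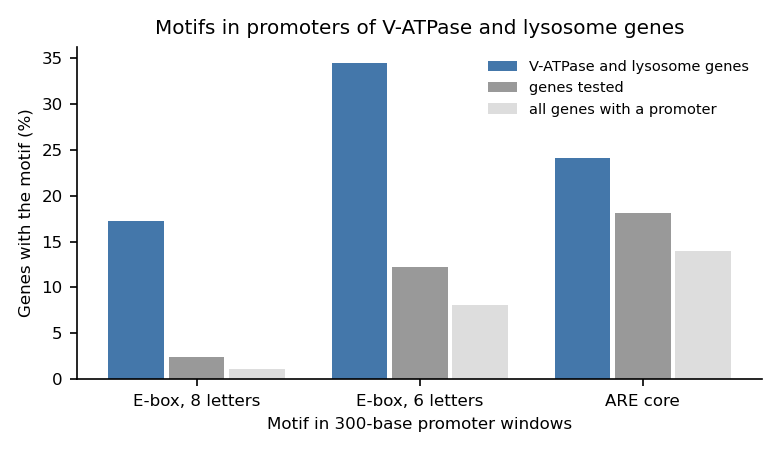
Share of genes (y axis, percent) whose 300-base promoter window holds the 8-letter E-box, the 6-letter E-box or the antioxidant response element (ARE) core on either strand, for 29 members, 4552 tested genes and all 27025 genes with a promoter. The member bars are at 17.2%, 34.5% and 24.1%, and those of the tested genes at 2.42%, 12.2% and 18.1%.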

How the data were processed

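RNA was taken from livers of 3 p62+/+ and 3 p62S351E/+ mice, and 75-base single-end reads of rRNA-depleted total RNA were processed by the authors with Trim Galore, STAR and RSEM on mm10 (versions and annotation are not given in the sources used here). The deposited values are RSEM expected counts per gene, 6.45% of the nonzero ones not whole. They were rounded and fitted with edgeR 4.0.16 in R 4.3.3: genes with enough counts by filterByExpr (minimum 10) gave 5945 tested, with TMM, the robust quasi-likelihood test and Benjamini-Hochberg adjustment. limma 3.58.1 (voom) and DESeq2 1.42.0 were alternatives. The code was tested on simulated data. The members, gene lists and alternatives were chosen with earlier results of these data known. Values in every library are given for the pseudogene and its parent and, in each role group, for the members farthest up, farthest down and highest in counts; other members with full values were chosen after their values were seen. Of the 38 members, 36 passed the filter. Replicate numbers name different animals, and nothing beyond separate mice separates the libraries, so errors cover these mice and this sequencing. Cd68 is in both the macrophage and the membrane list. Sequences are from GENCODE and RefSeq for GRCm38, and the longer RefSeq extent of Atp6v0c-ps2 (1133 bases) was not examined.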

Additional observations from a re-analysis of the deposited data

How the results depend on the processing

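The member called higher (1) became 0 with DESeq2, which gave Atp6v0c-ps2 no adjusted p, and 0 with a minimum of 10 counts in each of the libraries, under which Atp6v0c-ps2 was not tested and 2 of 19 members were called lower (Atp6v1a and Gaa), as were 29 of 2343 genes. Same-numbered mice did not deviate together (correlations of 0.0713, -0.0853 and 0.000353), and with the replicate number as a block 0 members were called higher and 0 lower. Leaving out 1 library gave 1 to 3 members higher and 0 to 3 lower, the highest of both without p62S351E/+ mouse 3 (Atp6v0c-ps2, Ctsz and Hexa higher), a fit that called 5.15% of all genes higher and 15.3% lower. Without both p62S351E/+ mice 1 and 2 the median of the members was 0.017, in a fit in which the lone mouse is assumed to vary like the others. In that mouse Atp6v0c was at 25.3 normalized counts and Atp6v0c-ps2 at 38.2. Their sum was 63.5, beside 65.8 to 78.6 in the p62+/+ mice. Library size as the only scaling gave a median of -0.72. Taken as 1 locus with its pseudogene, Atp6v0c was at -0.51 in the fit of all libraries. The cause of these differences was not tested. No called value changed its direction. Among the V-ATPase subunits, Atp6v1d, Atp6v1f and Atp6v1g1 changed sign in 1, 4 and 1 of the alternatives and the other 11 tested in 0. Counts below 20 in every library limit Atp6v0e, Atp6v1f, Cd63 and Gusb most.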
